A study of Homo sapiens with 18 samples.

Results

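SKOV3 cultures treated with daphnetin at 40 mg/L were compared with SKOV3 cultures given DMSO, the solvent, with 3 libraries in each group. These 6 of the 18 libraries of the series were assigned to their groups by their labels, and all genes were examined. SKOV3 is an established human ovarian adenocarcinoma line with an amplified ERBB2 gene, and daphnetin is a dihydroxycoumarin found in plants of the genus Daphne. The labels call the cells wild type, and name no genetic change or other agent in either group. Another SKOV3 group received daphnetin at 20 mg/L, and the same 3 groups exist for A2780, a second ovarian cancer line. These were used only to set the response at 40 mg/L beside the lower dose and beside the other line. The stated purpose was to look for transcripts and pathways behind the killing of ovarian cancer cells by daphnetin and its hindrance of their invasion and migration. The duration of treatment is not given in the sources used here, and no label tells whether the 3 libraries of a group are separate cultures, so each p-value reflects spread among libraries that may be technical.

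Several pathways that such cells use under chemical stress are followed below. NRF2 is a transcription factor that KEAP1 holds in check until reactive compounds or oxidants modify KEAP1, after which it switches on genes for glutathione, thioredoxin, quinone reduction and iron storage. The integrated stress response acts through ATF4, whose translation rises when eIF2 is phosphorylated, and raises genes for amino acid supply and for CHOP (DDIT3), while the unfolded protein response raises chaperones of the endoplasmic reticulum. Entry into mitosis needs a set of genes that are transcribed late in the cell cycle, many of them through paired CHR and CCAAT promoter elements. SREBP factors drive cholesterol and fatty acid synthesis.

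Total counts in the 6 libraries ran from 36629415 to 44132931, and 29062 to 30091 genes had at least 1 count. Between 74.3% and 77.0% of counts from 1 to 12 were even, so both mates of a read pair appear to have been counted and the totals overstate the fragments. Levels are given as CPM (counts scaled to a common library size) and do not correct for gene length, so levels are compared between samples of 1 gene and not between genes. The line's defining markers were present. ERBB2 had 2283, 2281 and 2258 CPM at 40 mg/L, against 2776, 2645 and 2758 CPM in DMSO cultures, and EPCAM, KRT7, KRT8, KRT18 and PAX8 were all detected. Among 15 immune cell markers, CD3D, MS4A1 and FCGR3A had no count in any SKOV3 library and PTPRC stayed at or below 0.223 CPM. CD68, a lysosomal protein of macrophages and of many other cells, made up nearly all of that list's summed level, which ran from 87.3 to 104 CPM at 40 mg/L and from 72.2 to 79.5 CPM in DMSO cultures, and 81.7% of its exonic bases overlap a second gene on the same strand.

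Of 21936 genes tested, 11425 (52.1%) differed between 40 mg/L and DMSO at an adjusted p under 0.05, and these are the genes said to be called, to rise or to fall below. In bulk RNA, fewer cells of a type or cycle phase and less RNA per cell cannot be told apart. Of the called genes, 5801 were higher (26.4% of the genes tested) and 5624 were lower (25.6%). Counts of list members that rose or fell at 40 mg/L are to be read against these shares. Most changes were modest. The median size among called genes was 0.51 on the log2 scale, and 2271 called genes (10.4%) changed at least 2-fold, 825 of them upward (3.76%) and 1446 downward (6.59%). With a filter of at least 1 CPM in 3 libraries, which tested fewer genes, 1381 changed at least 2-fold. The median log2 fold change over all genes was 0.01. The scaling of the libraries assumes that most genes are unchanged, so it partly sets this median and the balance of higher and lower genes. In 12644 genes (57.6%) the 3 libraries at 40 mg/L did not overlap with the 3 DMSO libraries. Statements below that the libraries of named genes were separate are to be read against this share. Leading list members were chosen by the size of their change among called genes, which favours separate libraries. On the first principal component of the SKOV3 libraries, which held 54% of the variance, DMSO libraries lay between -37.16 and -34.85, the 20 mg/L libraries between -22.68 and -20.83 and the 40 mg/L libraries between 54.46 and 62.88. On this component the lower dose thus lay close to DMSO and the higher dose far from both. On the second component (10.3% of the variance), DMSO libraries lay between -25.75 and -14.98 and 20 mg/L libraries between 18.71 and 31.5. The 40 mg/L libraries lay between these groups, from -5.56 to -2.26.

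**Figure D1:**
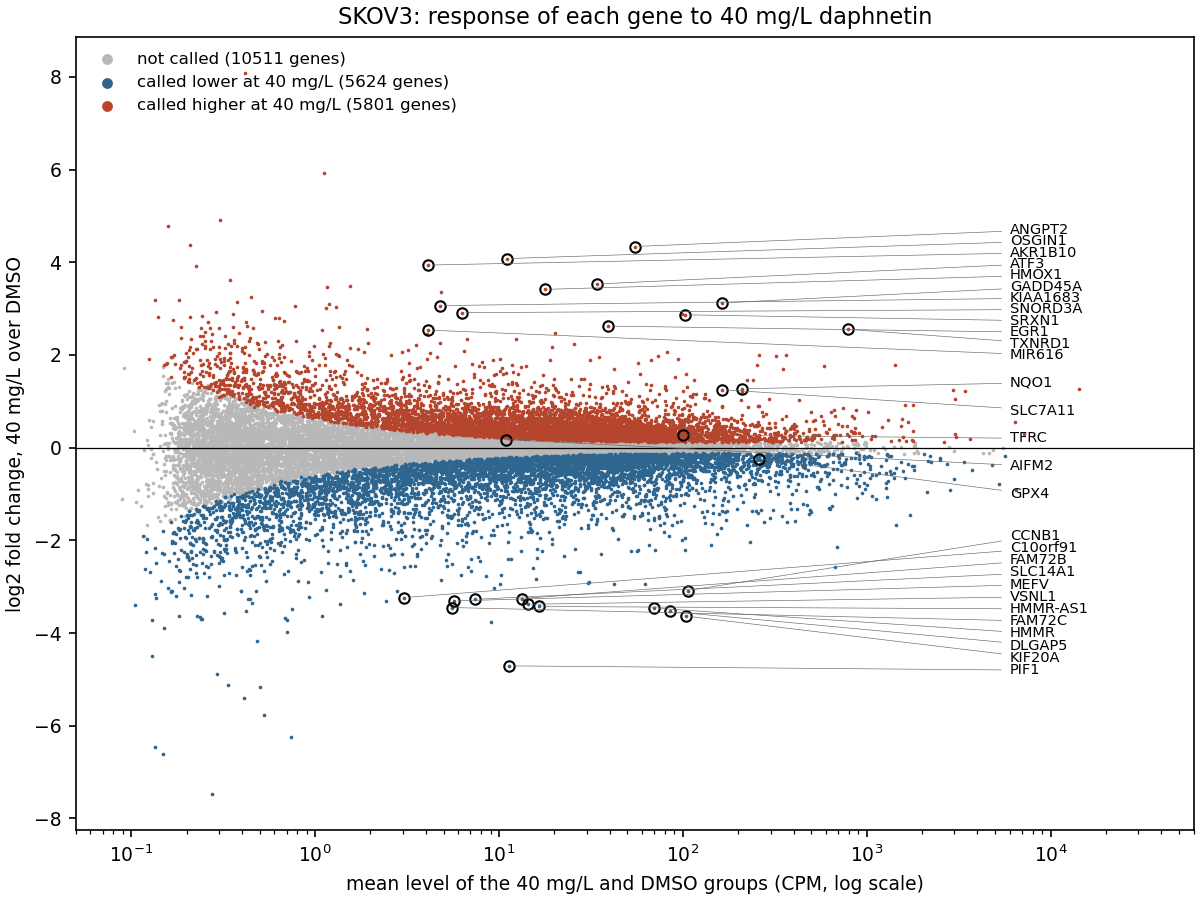
Each point is 1 of the 21936 genes, placed by the mean level of the 40 mg/L and DMSO groups (CPM, log scale) and the log2 fold change of 40 mg/L over DMSO; colours mark called genes and circles the named ones. ANGPT2 has the highest fold change among the circled genes at 4.34 and PIF1 the lowest at -4.71, while GPX4 and AIFM2 lie near 0; several genes of low level lie beyond these.

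The 12 named genes that rose most, taken from called genes that have a symbol, reach a mean of 5 CPM in either group and separate the libraries, included NRF2 targets (OSGIN1, AKR1B10, HMOX1, SRXN1 and TXNRD1), stress-induced regulators (ATF3, GADD45A and EGR1) and a secreted vessel factor. ANGPT2, which encodes the angiopoietin that loosens blood vessels, had 92.4, 119 and 102 CPM at 40 mg/L, against 5.08, 5.04 and 5.31 CPM in DMSO cultures. It was the largest rise of the 12 by this rule, 20.2-fold (log2 fold change 4.34 ± 0.15 (SE), adjusted p = 8.25e-11). OSGIN1, an oxidative stress-induced growth inhibitor, had 19.9, 23.1 and 19.8 CPM at 40 mg/L, against 1.19, 1.06 and 1.44 CPM in DMSO cultures (log2 fold change 4.08 ± 0.15 (SE), adjusted p = 7.19e-22). In both genes every treated library stood above every DMSO library, which the rule of choice required. AKR1B10, an aldo-keto reductase, had 6.92, 7.38 and 8.87 CPM at 40 mg/L, against 0.326, 0.613 and 0.577 CPM in DMSO cultures (log2 fold change 3.94 ± 0.19 (SE), adjusted p = 1.04e-18). ATF3, a stress-induced bZIP transcription factor, had 64.8, 64.8 and 59.8 CPM at 40 mg/L, against 5.96, 6.18 and 4.28 CPM in DMSO cultures (log2 fold change 3.53 ± 0.09 (SE), adjusted p = 1.11e-25). HMOX1, the enzyme that breaks heme down to iron, carbon monoxide and biliverdin, had 32.2, 35.1 and 30.2 CPM at 40 mg/L, against 3.35, 3.68 and 2.16 CPM in DMSO cultures (log2 fold change 3.42 ± 0.12 (SE), adjusted p = 6.11e-22). The rule likewise required separate libraries in these 3 genes. GADD45A, a growth arrest and stress sensor gene, had 302, 279 and 299.9 CPM at 40 mg/L, against 33.2, 35.4 and 32.5 CPM in DMSO cultures (log2 fold change 3.12 ± 0.06 (SE), adjusted p = 8.24e-30). TXNRD1, which encodes cytosolic thioredoxin reductase, had 1269, 1402 and 1378 CPM at 40 mg/L, against 235, 222 and 233 CPM in DMSO cultures (log2 fold change 2.55 ± 0.06 (SE), adjusted p = 9.41e-27). SRXN1, which reactivates peroxiredoxins, rose 7.29-fold and EGR1, an immediate early transcription factor, rose 6.16-fold. The first of them shares 85% of its exonic bases with a second annotated gene on the same strand, so its counts depend on how shared reads were handled.

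The rest of the 12 were KIAA1683 (also called IQCN), SNORD3A and MIR616, at log2 fold changes of 3.07, 2.91 and 2.54. MIR616 (GRCh38, chromosome 12, 57519163 to 57519259, minus strand) lies within the span of DDIT3 (chromosome 12, 57516588 to 57520517, same strand), which rose too, and reads of the host's precursor RNA cannot be told apart from reads of the microRNA in such libraries. SNORD3A is the U3 small nucleolar RNA, which guides early cleavage of ribosomal RNA, and carries no poly(A) tail, and the part of capture in its level was not tested.

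The 12 that fell most included KIF20A and CCNB1 of the mitotic list. PIF1, a DNA helicase transcribed late in the cell cycle, had 0.776, 0.976 and 0.752 CPM at 40 mg/L, against 23.1, 22.5 and 20.2 CPM in DMSO cultures, a fall to 1/26.1 of the DMSO level (log2 fold change -4.71 ± 0.13 (SE), adjusted p = 5.4e-25). KIF20A, a kinesin of cytokinesis, had 15, 15.3 and 16.3 CPM at 40 mg/L, against 189.6, 190.1 and 198 CPM in DMSO cultures (log2 fold change -3.63 ± 0.07 (SE), adjusted p = 8.24e-30). DLGAP5, which stabilises spindle microtubules, had 14, 11.8 and 15 CPM at 40 mg/L, against 154, 157 and 162 CPM in DMSO cultures (log2 fold change -3.54 ± 0.07 (SE), adjusted p = 2.42e-29). In all 3 genes every treated library lay below every DMSO library, which the rule of choice required. HMMR, a hyaluronan receptor that also acts on the spindle, had 12.9, 10.4 and 11.5 CPM at 40 mg/L, against 129, 126 and 129.5 CPM in DMSO cultures (log2 fold change -3.46 ± 0.07 (SE), adjusted p = 1.87e-28). CCNB1, cyclin B1, the partner of CDK1 that starts mitosis, had 21.6, 21.7 and 24.3 CPM at 40 mg/L, against 186, 192 and 193 CPM in DMSO cultures (log2 fold change -3.08 ± 0.06 (SE), adjusted p = 1.33e-29). HMMR-AS1 fell with HMMR, at a log2 fold change of -3.43, and 11.8% of its exonic bases overlap HMMR on the other strand, so without a stated strand setting the pair cannot be fully separated. FAM72B and FAM72C fell by 3.26 and 3.45 on the log2 scale, and their near-identical copies make the split of reads between them uncertain.

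VSNL1, a neuronal calcium sensor, MEFV, which encodes pyrin, the urea transporter SLC14A1 and C10orf91 completed the 12, at log2 fold changes of -3.38, -3.31, -3.27 and -3.24. MEFV had 1.11, 1.21 and 0.779 CPM at 40 mg/L, against 10.6, 11.2 and 9.25 CPM in DMSO cultures.

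**Figure D2:**
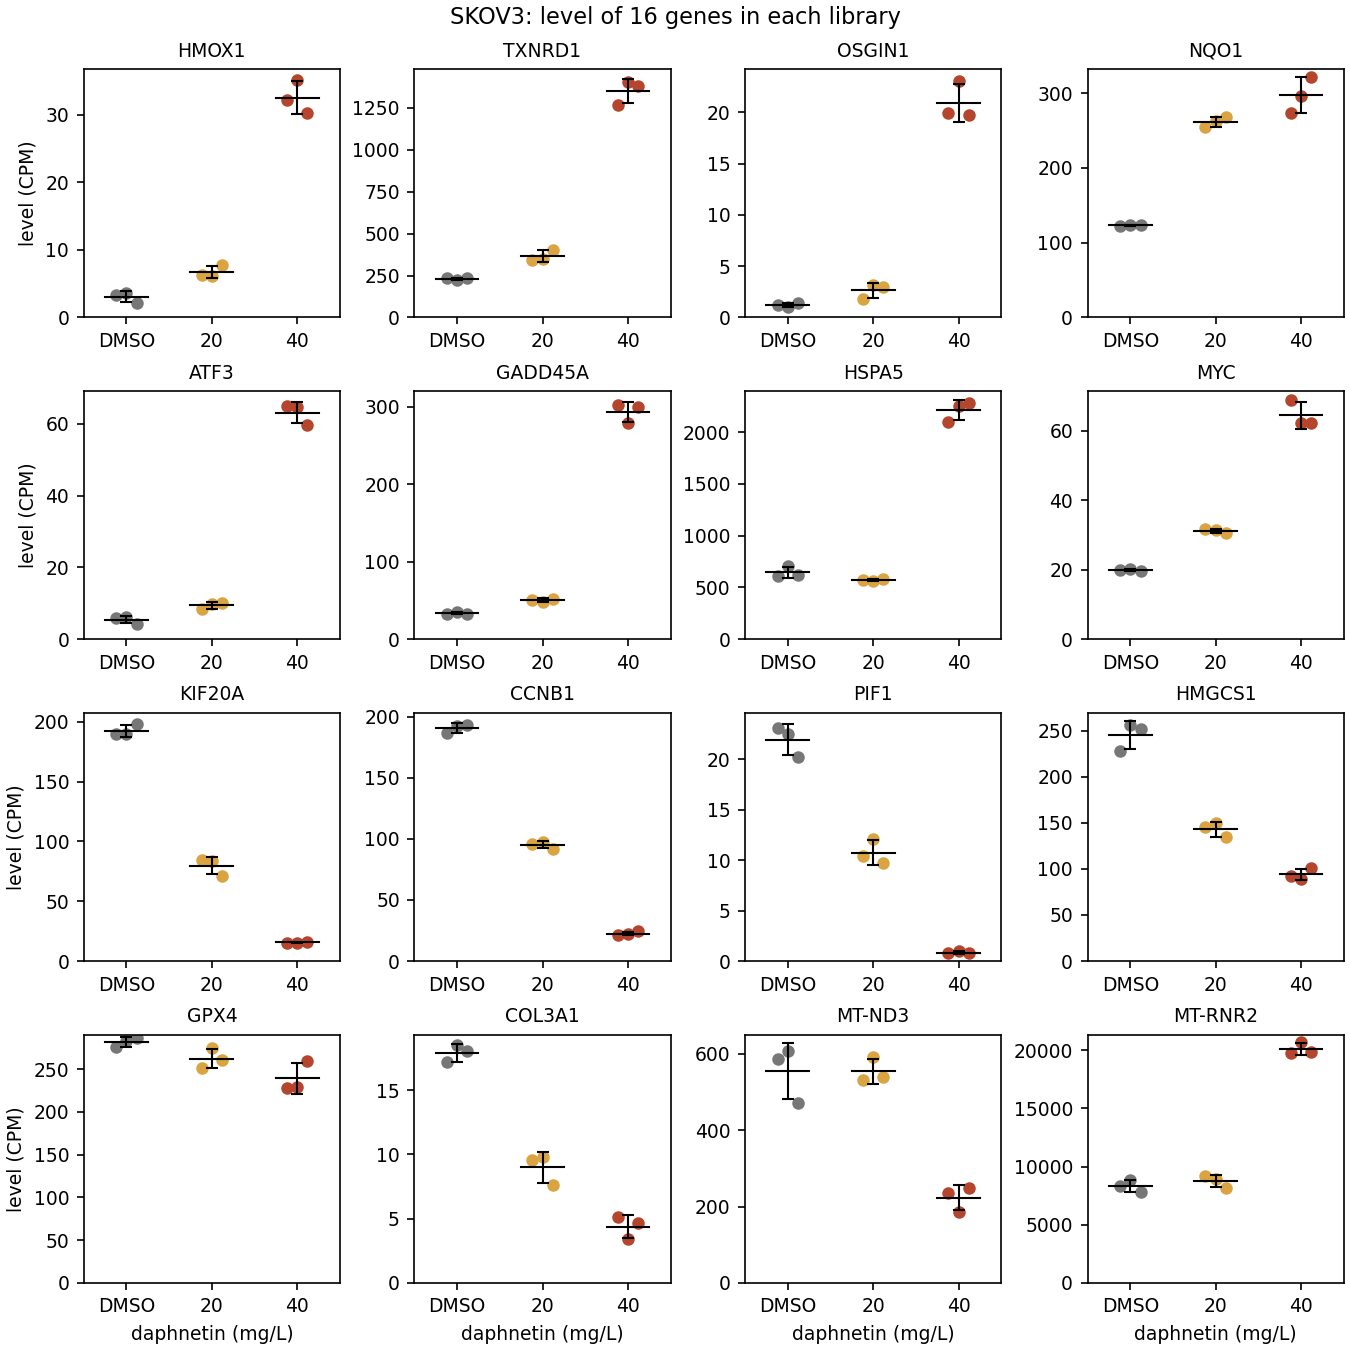
Level (CPM, from 0) of 16 genes in each SKOV3 library by daphnetin dose; points are libraries, horizontal lines the group means and error bars the SD of 3 libraries. HMOX1, TXNRD1, OSGIN1, ATF3, GADD45A and HSPA5 stand far higher at 40 mg/L than at either other dose, NQO1 is already high at 20 mg/L, and KIF20A, CCNB1, PIF1, HMGCS1 and COL3A1 step down with dose.

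Most NRF2 targets rose. In this list 30 of 35 tested members rose and 2 fell, with a median log2 fold change of 1.23, and 19 rose at least 2-fold. Of all genes, 26.4% rose and 25.6% fell. NQO1, the quinone reductase, had 274, 296 and 322 CPM at 40 mg/L, against 122, 124 and 123 CPM in DMSO cultures (log2 fold change 1.27 ± 0.05 (SE), adjusted p = 9.79e-20). SLC7A11, which brings in cystine for making glutathione, had 218, 254 and 218 CPM at 40 mg/L, against 102, 91.1 and 97.1 CPM in DMSO cultures (log2 fold change 1.25 ± 0.08 (SE), adjusted p = 1.36e-11). Both were higher in every treated library than in any DMSO library. The subunits of glutamate-cysteine ligase, the first step of glutathione synthesis, rose together, GCLM by 4.49-fold and GCLC by 4.2-fold. Enzymes of the pentose phosphate pathway rose less, with log2 fold changes of 0.52 for PGD, 0.54 for TKT and 0.43 for TALDO1. The carbonyl reductases CBR1 and CBR3 were the 2 that fell, by 0.32 and 0.47 on the log2 scale, and PIR, NQO2 and GPX2 were not called. KEAP1 itself rose, at a log2 fold change of 0.78.

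The promoters of TXNRD1 and GCLM are shown because these targets were among the strongly raised ones and because their windows hold the core of the antioxidant response element, to which NRF2 binds. The windows run from 250 bases before to 50 after the RefSeq start of each gene in GRCh38.p14, written 5′ to 3′ on the gene's strand, with each match to TGACNNNGC, on either strand, in capitals. TXNRD1 lies at chr12:104215529-104215828, plus strand and GCLM at chr1:93909381-93909680, minus strand.
TXNRD1: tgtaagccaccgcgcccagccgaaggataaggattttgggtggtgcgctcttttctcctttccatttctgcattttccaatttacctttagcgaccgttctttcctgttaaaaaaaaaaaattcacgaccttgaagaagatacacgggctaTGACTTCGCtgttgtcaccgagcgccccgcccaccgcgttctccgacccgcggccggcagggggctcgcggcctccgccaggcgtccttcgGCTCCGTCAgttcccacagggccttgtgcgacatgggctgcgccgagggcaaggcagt
GCLM: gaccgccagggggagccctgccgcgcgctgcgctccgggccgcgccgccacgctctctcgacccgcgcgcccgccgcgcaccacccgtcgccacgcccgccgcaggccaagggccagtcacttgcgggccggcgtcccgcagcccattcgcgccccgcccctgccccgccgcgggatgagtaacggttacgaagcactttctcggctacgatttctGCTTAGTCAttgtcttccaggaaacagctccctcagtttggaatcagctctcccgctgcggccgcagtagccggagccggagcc
The matches begin at -99 and -8 in TXNRD1 and at -34 in GCLM, counted from the start. The same letters stand in 13.6% of all 27305 promoters of the table, so a match by itself is common. Each window is placed on a listed RefSeq start, and whether the RNA counted here began at that start was not tested. Matches to TGACNNNGC can overlap those to TGANTCA, the AP-1 element. Only 24 of 35 NRF2 targets had a promoter in the table, under the share of 80% set as the least, so a comparison over the list is void.

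Genes that act on ferroptosis, the iron-dependent death by lipid peroxidation, moved in both directions. Among suppressors 11 of 25 tested members rose and 7 fell, and among drivers 10 of 26 tested members rose and 10 fell, against 26.4% and 25.6% of all genes. GPX4, which reduces lipid peroxides, had 228, 229 and 259.5 CPM at 40 mg/L, against 276, 283 and 286 CPM in DMSO cultures, a small fall (log2 fold change -0.24 ± 0.05 (SE), adjusted p = 0.000391). AIFM2, the FSP1 oxidoreductase, had 10.8, 11.5 and 12.3 CPM at 40 mg/L, against 9.81, 10.1 and 10.7 CPM in DMSO cultures and was not called (log2 fold change 0.18 ± 0.09 (SE), adjusted p = 0.0943). TFRC, the transferrin receptor that imports iron, had 110.5, 107 and 112 CPM at 40 mg/L, against 96.1, 84.4 and 91.5 CPM in DMSO cultures (log2 fold change 0.27 ± 0.05 (SE), adjusted p = 5.35e-05). These 3 changes were all smaller than 0.3 on the log2 scale, whereas the suppressors that rose most (GCLM, GCLC, FTL and SLC3A2) act in cystine import, glutathione synthesis and iron storage. Both ferritin chains, which store iron, rose, FTL at 1.92 and FTH1 at 1.23, although FTH1 shares 62.4% of its exonic bases with BEST1 on the other strand. SCD, a desaturase that makes monounsaturated fatty acids, had 36, 31.3 and 37.6 CPM at 40 mg/L, against 122, 119.5 and 128 CPM in DMSO cultures and fell (log2 fold change -1.81 ± 0.06 (SE), adjusted p = 5.14e-23). The heat shock protein HSPB1 fell too, at -1.51. Of drivers, ACSL4, FADS1, FADS2 and ELOVL5, which supply polyunsaturated lipids, fell by 0.62, 0.79, 1.08 and 0.63 on the log2 scale, while HMOX1 and CHAC1, a glutathione-degrading enzyme, rose.

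The iron list as a whole was mixed, since 11 of 23 tested members rose and 6 fell, with a median of 0.10. The zinc and iron importer SLC39A8 fell, at -0.72, whereas its relative SLC39A14 rose, at 0.63.

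Most genes of the integrated stress response rose. There 26 of 34 tested members rose and 6 fell, against 26.4% and 25.6% of all genes, with a median of 0.61. ATF4, its central transcription factor, had 319.6, 331 and 351 CPM at 40 mg/L, against 177, 186 and 177 CPM in DMSO cultures (log2 fold change 0.89 ± 0.05 (SE), adjusted p = 1.02e-15). DDIT3, which encodes CHOP, had 118, 118 and 116 CPM at 40 mg/L, against 29.9, 30.6 and 28.6 CPM in DMSO cultures (log2 fold change 1.99 ± 0.05 (SE), adjusted p = 5.01e-25), although MARS covers 28.0% of its exon sequence from the opposite strand. PPP1R15A, the GADD34 subunit that reverses eIF2 phosphorylation, had 576, 592 and 573 CPM at 40 mg/L, against 148, 149 and 141 CPM in DMSO cultures (log2 fold change 1.99 ± 0.06 (SE), adjusted p = 5.24e-25). All 3 were higher in every treated library than in any DMSO library. GDF15, a stress-induced secreted factor, TRIB3, a pseudokinase downstream of CHOP, and ASNS, asparagine synthetase, had log2 fold changes of 2.45, 1.72 and 1.47. The 6 that fell were DDIT4, PSPH, ATF5, CBS, VLDLR and ALDH18A1, with DDIT4, an mTORC1 inhibitor, at -0.88, although a gene of the opposite strand covers 41.2% of its exon sequence. Among amino acid transporters 11 of 22 tested members rose and 4 fell. SLC7A5, the large neutral amino acid transporter, had 430.5, 408 and 401 CPM at 40 mg/L, against 115, 84.3 and 109 CPM in DMSO cultures (log2 fold change 2.01 ± 0.12 (SE), adjusted p = 4.19e-07), and its heavy chain SLC3A2 rose 3.41-fold. Of cytosolic aminoacyl-tRNA synthetases, 15 of 20 tested members rose and 3 fell, with AARS at 1.05, MARS at 0.92, GARS at 0.72 and VARS, one of those that fell, at -0.52.

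The promoter of ATF3 is shown because ATF3 had the largest fold change of this list. It lies at chr1:212565157-212565456, plus strand, with the match to TGATGNAAN, the core of the composite element bound by ATF4 and CEBP factors, in capitals.
ATF3: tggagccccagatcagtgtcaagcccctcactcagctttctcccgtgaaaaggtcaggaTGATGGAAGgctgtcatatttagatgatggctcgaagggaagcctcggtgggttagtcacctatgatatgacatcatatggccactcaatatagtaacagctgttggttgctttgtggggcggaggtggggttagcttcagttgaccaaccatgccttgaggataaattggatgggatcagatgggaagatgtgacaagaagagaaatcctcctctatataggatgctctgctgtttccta
The match begins at -191. Whether the ATF3 RNA counted here began at this listed start was not tested. Of the 28 list members with a promoter in the table, 5 held the element (17.9%), against 3.7% of all promoters and 1.9% of those of tested genes. Such shares over a list, here and below, describe the genes chosen for it, whatever their response to the treatment.

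Chaperones of the endoplasmic reticulum and genes of the unfolded protein response rose in 22 of 23 cases, with 9 rising at least 2-fold and a median of 0.68. None fell. HSPA5, the chaperone BiP, had 2098, 2255 and 2279 CPM at 40 mg/L, against 614, 708 and 617 CPM in DMSO cultures (log2 fold change 1.77 ± 0.06 (SE), adjusted p = 3.98e-23). DNAJB9, its cochaperone, had 45.9, 50.9 and 51.7 CPM at 40 mg/L, against 13.1, 12.4 and 14.5 CPM in DMSO cultures (log2 fold change 1.89 ± 0.07 (SE), adjusted p = 5.86e-21). XBP1, the transcription factor activated by IRE1, had 137, 146 and 165 CPM at 40 mg/L, against 61.1, 58.9 and 60.5 CPM in DMSO cultures (log2 fold change 1.31 ± 0.06 (SE), adjusted p = 1.72e-18). No treated library overlapped a DMSO library in these genes. At 20 mg/L, 2 of the 23 were higher than in DMSO and 1 was lower, with a median of 0.05. HSPA5 was the lower one, at -0.17, and DNAJB9 and ERO1B the higher ones. In the heat shock response list, which holds cytosolic and mitochondrial chaperones, 3 of 20 tested members rose and 10 fell, with HSPA1A at -0.17 and DNAJB1 at -0.38. The promoter of HSPA5 (chr9:125241294-125241593, minus strand) is shown with every CCAAT, the NF-Y element, in capitals on either strand.
HSPA5: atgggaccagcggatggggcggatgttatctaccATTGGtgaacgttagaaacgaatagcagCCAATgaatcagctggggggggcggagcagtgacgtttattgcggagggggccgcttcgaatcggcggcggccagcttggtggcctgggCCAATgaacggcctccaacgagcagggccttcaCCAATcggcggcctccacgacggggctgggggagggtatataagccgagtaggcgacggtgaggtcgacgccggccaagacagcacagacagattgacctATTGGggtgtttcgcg
It holds 5 matches. A CCAAT stood in 18 of the 22 promoters of this list that were in the table (81.8%), against 35.7% of all promoters and 36.2% of those of tested genes.

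Mitotic genes fell without exception among the 32 tested, 30 of them at least 2-fold, with a median of -1.82, while 25.6% of all genes fell. The decrease covered kinases, cyclins, kinesins and the kinetochore. PLK1, polo-like kinase 1, had 9.33, 9.67 and 10.3 CPM at 40 mg/L, against 71, 73.2 and 80.6 CPM in DMSO cultures (log2 fold change -2.94 ± 0.07 (SE), adjusted p = 4.7e-27). BUB1, a spindle checkpoint kinase, had 6.94, 6.43 and 8.09 CPM at 40 mg/L, against 56.1, 50.9 and 54.6 CPM in DMSO cultures (log2 fold change -2.92 ± 0.08 (SE), adjusted p = 1.11e-25). AURKA, aurora kinase A, had 7.09, 7.05 and 7.71 CPM at 40 mg/L, against 47.8, 45.1 and 47 CPM in DMSO cultures (log2 fold change -2.68 ± 0.08 (SE), adjusted p = 3.33e-24). In each of them the treated libraries stood far below the DMSO libraries. TOP2A, topoisomerase 2-alpha, fell by 2.13 and CDK1, the kinase that cyclin B1 activates, by 1.02 on the log2 scale. MAD2L1 and ECT2 were the ones that fell less than 2-fold.

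DNA replication genes, which act earlier in the cycle, mostly did not fall. In that list 22 of 38 tested members rose and 4 fell, with a median of 0.28. CDC6, which loads the replicative helicase, had 163, 147 and 176 CPM at 40 mg/L, against 72.8, 70.6 and 75 CPM in DMSO cultures (log2 fold change 1.16 ± 0.06 (SE), adjusted p = 6.74e-18). E2F1, a transcription factor of the G1 to S transition, had 23.2, 23.1 and 28 CPM at 40 mg/L, against 11.4, 10.4 and 10.3 CPM in DMSO cultures (log2 fold change 1.21 ± 0.08 (SE), adjusted p = 3.98e-14). Both groups were separate in each. CCNE2, cyclin E2, had a log2 fold change of 1.48, although INTS8 covers 37.0% of its exon sequence from the opposite strand. POLA1, TYMS and UHRF1 were among those that fell, by 0.61, 0.41 and 0.29 on the log2 scale. Among G1 cyclins and their partners 5 of 18 tested members rose and 6 fell, with the inhibitor CDKN2C at -1.66 and CCND2 at -1.26. Homologous recombination and Fanconi genes divided into 11 higher and 9 lower of 28 (39.3% and 32.1%), against 26.4% and 25.6% of all genes. Of histone genes, many of whose transcripts lack a poly(A) tail, 12 of 15 were not called.

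The promoters of PIF1 (chr15:64825598-64825897, minus strand) and HMMR (chr5:163460382-163460681, plus strand) are shown because both genes were among the 12 that fell most and hold both elements of late cell cycle promoters. TTTGAA, the CHR element, and CCAAT are in capitals on either strand.
PIF1: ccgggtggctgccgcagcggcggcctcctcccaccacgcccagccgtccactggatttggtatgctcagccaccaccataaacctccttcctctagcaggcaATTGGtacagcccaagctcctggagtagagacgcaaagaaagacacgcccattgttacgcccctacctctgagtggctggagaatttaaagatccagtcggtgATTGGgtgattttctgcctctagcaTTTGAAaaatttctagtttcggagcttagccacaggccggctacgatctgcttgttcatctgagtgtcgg
HMMR: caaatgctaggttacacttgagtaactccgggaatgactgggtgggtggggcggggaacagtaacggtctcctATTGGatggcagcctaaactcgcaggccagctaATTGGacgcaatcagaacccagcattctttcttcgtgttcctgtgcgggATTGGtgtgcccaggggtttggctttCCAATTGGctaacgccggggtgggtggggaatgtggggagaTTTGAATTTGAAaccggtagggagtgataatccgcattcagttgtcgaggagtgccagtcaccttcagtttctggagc
A CHR match begins at -20 in PIF1 and at -28 and -22 in HMMR. Of the 27 mitotic genes with a promoter in the table, 20 held TTTGAA (74.1%) and 21 held CCAAT (77.8%). The shares were 15.4% and 35.7% of all promoters, and 10.1% and 36.2% of those of tested genes. The list was made of known mitotic genes, so its shares do not measure the treatment. Among promoters of replication genes, 1 of 33 held TTTGAA and 9 held TTTCCCGC, the E2F element. That element stood in 1.7% of all promoters and in 2.4% of those of tested genes. Over all called genes such shares are void, because only 43.2% of the genes at least 2-fold higher and 51.6% of those at least 2-fold lower had a promoter in the table.

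Of 12 tested genes of the GADD45 family and of growth arrest, 5 rose and 1 fell, with GADD45A at 3.12 (2 fell in place of 1 when either the first or the third treated library, or the first DMSO library, was left out). CDKN1A, the p21 inhibitor of cyclin-dependent kinases, had 7.29, 6.62 and 7.87 CPM at 40 mg/L, against 3.8, 3.56 and 4.08 CPM in DMSO cultures (log2 fold change 0.92 ± 0.13 (SE), adjusted p = 2.1e-07). Of BCL2 family genes 2 of 15 tested members rose and 5 fell (13.3% and 33.3%), against 26.4% and 25.6% of all genes. The BH3-only gene PMAIP1 was at 0.96 and the survival gene MCL1 at -0.23. BAX and BBC3, which promote apoptosis, were among those not called, at -0.03 and 0.13.

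Immediate early genes, which respond within minutes to growth factors and stress, rose in 12 of 23 cases and fell in 1. The shares over all genes, 26.4% higher and 25.6% lower, stand beside each list here. EGR1 had 77.6, 57.8 and 66.5 CPM at 40 mg/L, against 12.4, 9.75 and 10.5 CPM in DMSO cultures (log2 fold change 2.62 ± 0.17 (SE), adjusted p = 1.69e-06). JUN, a component of AP-1, had 349, 355 and 354 CPM at 40 mg/L, against 124, 135 and 126 CPM in DMSO cultures (log2 fold change 1.45 ± 0.05 (SE), adjusted p = 3.39e-22). FOS, its partner, had 17.5, 14.5 and 15.4 CPM at 40 mg/L, against 6.71, 4.62 and 4.28 CPM in DMSO cultures (log2 fold change 1.60 ± 0.13 (SE), adjusted p = 2.08e-11). Treated and DMSO libraries were separate in all 3, as they were in 57.6% of all genes. MYC, a transcription factor of growth genes, rose 3.23-fold and its partner MAX had a log2 fold change of 0.46. Genes of ribosome biogenesis rose slightly, since 19 of 32 tested members rose and 3 fell, with a median of 0.21. Cytosolic ribosomal protein genes had 21 of 31 higher and 1 lower, with a median of 0.19 and none changed 2-fold. In the list of ERK pathway output the phosphatases DUSP1 and DUSP5 rose, at 1.82 and 1.77, whereas ETV4 and SPRY1 fell, at -1.58 and -1.43, and the whole list had 7 higher and 9 lower of 23. The aryl hydrocarbon receptor, its partner and its targets rose in 9 of 13 cases and fell in 4. CYP1B1, which metabolises aromatic compounds, was at 1.04. CYP1A1 was at 1.71, but its mean lay under 5 CPM in both groups. The median of this list was 1.08 at 20 mg/L and 0.68 at 40 mg/L. The lysosome and autophagy list had 18 higher and 2 lower of 28, led by SQSTM1, the autophagy receptor p62, at 1.71, and the sialidase NEU1, at 1.57. SQSTM1 shares 20.7% of its exonic bases with a gene on the other strand.

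**Figure D3:**
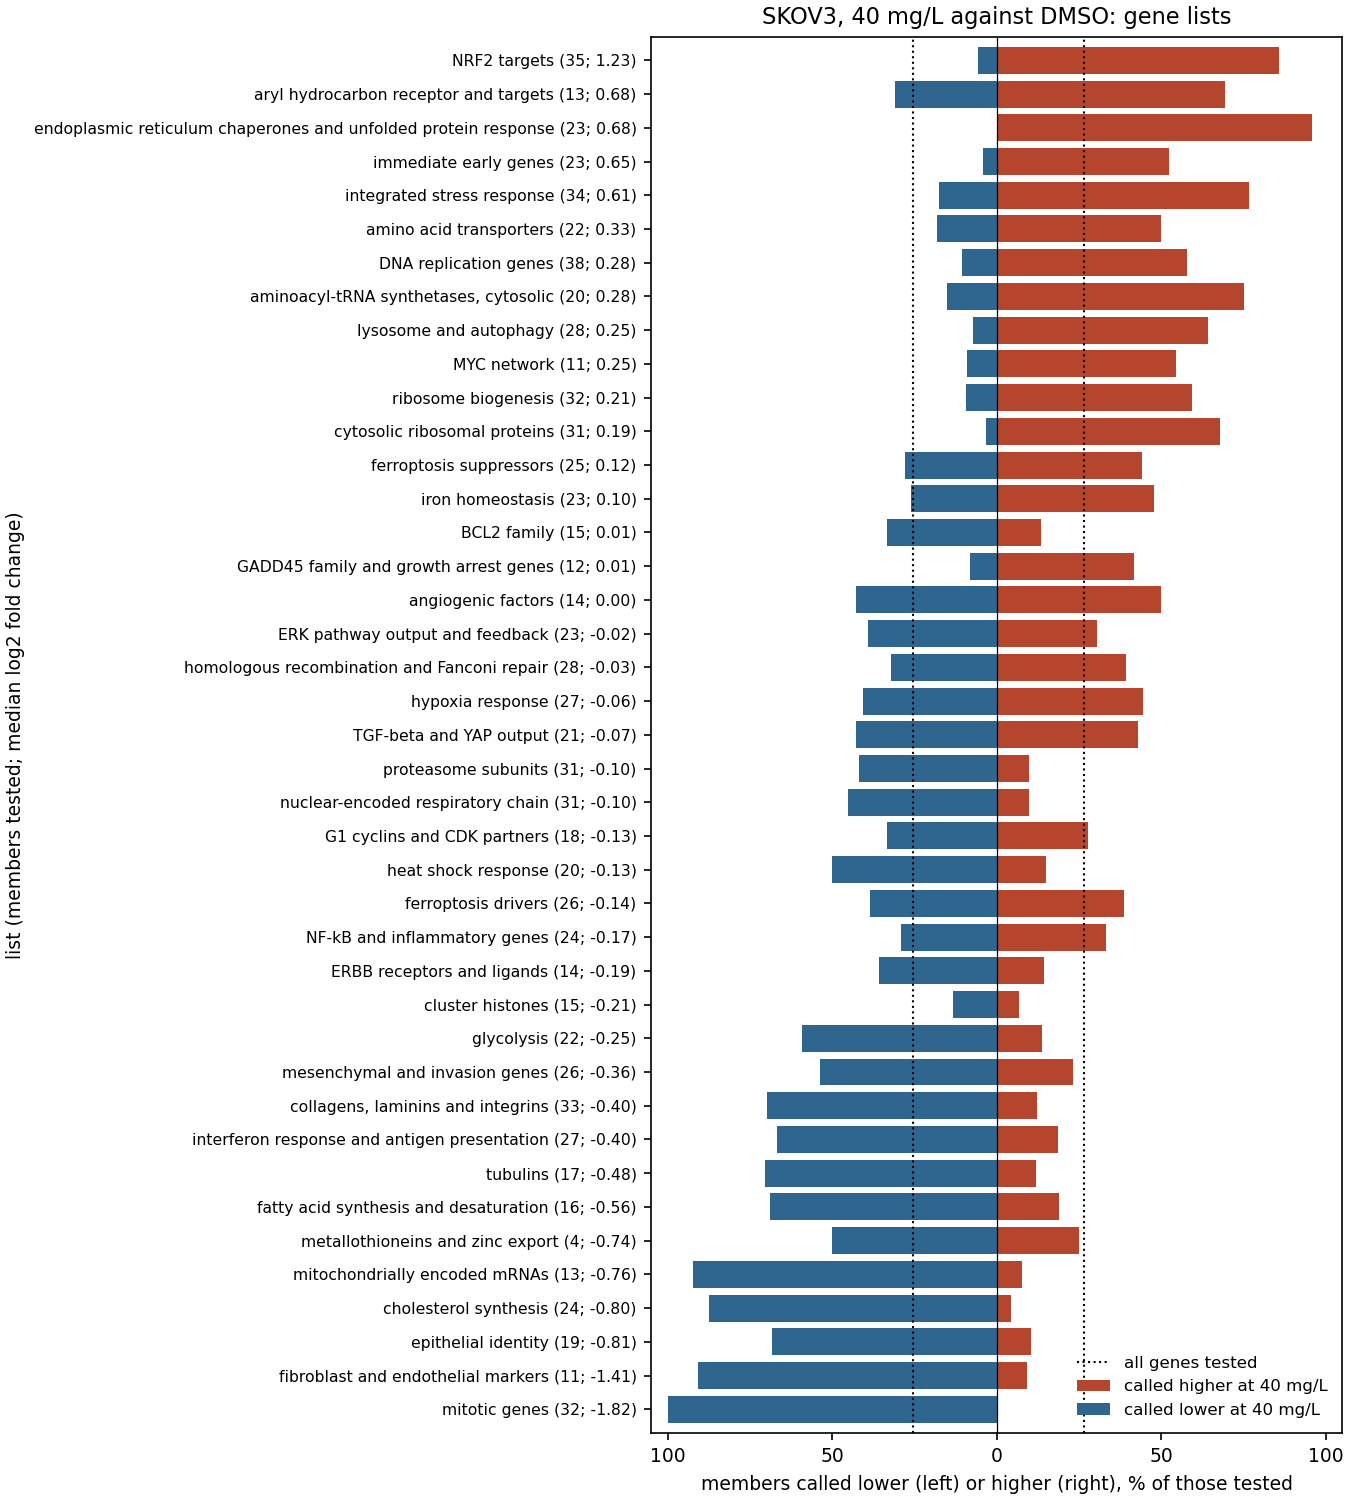
Share of the tested members of each list shown (in %) called higher (right) or lower (left) at 40 mg/L. Lists are ordered by their median log2 fold change, with dotted lines at 26.4% and 25.6% for all genes tested. Not all of the 43 lists are drawn. NRF2 targets, chaperones of the endoplasmic reticulum and the integrated stress response lie far to the right, and mitotic genes, cholesterol synthesis and mitochondrially encoded mRNAs far to the left.

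Cholesterol synthesis genes fell in 21 of 24 cases, with 1 higher and a median of -0.80. HMGCS1, the first committed enzyme of the mevalonate pathway, had 92, 88.8 and 101 CPM at 40 mg/L, against 228, 256 and 252 CPM in DMSO cultures (log2 fold change -1.39 ± 0.06 (SE), adjusted p = 4.37e-20). FDFT1, squalene synthase, had 37, 36.8 and 42.6 CPM at 40 mg/L, against 105, 114 and 111 CPM in DMSO cultures (log2 fold change -1.50 ± 0.06 (SE), adjusted p = 7.51e-20). All treated libraries were below all DMSO libraries in each. INSIG1, a sterol sensor, fell by 1.15 on the log2 scale. EBP was the member that rose, at 0.36, and SREBF2, which encodes the SREBP of this pathway, was not called, at -0.06. Fatty acid genes had 3 higher and 11 lower of 16, with SREBF1 at -1.14 and ACACA, acetyl-CoA carboxylase, at -0.87. Glycolysis genes had 3 higher and 13 lower of 22, none by 2-fold, with the glucose importer SLC2A1 at -0.52.

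RNAs encoded by the mitochondrial genome divided by class. Both ribosomal RNAs rose, while 12 of 13 mRNAs and 17 of 22 tested tRNAs fell. MT-RNR1, the small ribosomal RNA, had 317, 345 and 313 CPM at 40 mg/L, against 118, 131 and 108 CPM in DMSO cultures (log2 fold change 1.45 ± 0.06 (SE), adjusted p = 2.94e-20). MT-RNR2, the large one, had 19810, 20710 and 19890 CPM at 40 mg/L, against 8370, 8837 and 7841 CPM in DMSO cultures (log2 fold change 1.27 ± 0.06 (SE), adjusted p = 5.19e-19). Every treated library stood far above every DMSO library in both. MT-ND3, a complex I subunit, had 236, 186 and 247 CPM at 40 mg/L, against 585, 609 and 472 CPM in DMSO cultures (log2 fold change -1.32 ± 0.12 (SE), adjusted p = 1.2e-05). MT-ND2 had 799, 581 and 744 CPM at 40 mg/L, against 1516, 1713 and 1373 CPM in DMSO cultures (log2 fold change -1.12 ± 0.12 (SE), adjusted p = 2.59e-05). MT-CO1, a complex IV subunit, was the mRNA that rose, at 0.29, although its libraries overlapped between the groups. Together, both ribosomal RNAs held 2.02% to 2.14% of the counts at 40 mg/L and 0.78% to 0.879% in DMSO cultures, and the 13 mRNAs held 2.59% to 2.93% and 3.48% to 4.23%. At 20 mg/L neither ribosomal RNA was called and 1 mRNA was, MT-CO2 at 0.21. Of the tRNAs, 7 were called at 20 mg/L, of which MT-TM was lower and 6 were higher. MT-TA, MT-TN, MT-TC and MT-TY were higher at 20 mg/L and lower at 40 mg/L than in DMSO cultures, with MT-TN at 0.31 and -0.50. These RNAs carry short or no poly(A) tails, and the part of capture in these values was not tested. The tRNA genes lie between the others, and reads of precursor RNAs cannot be told apart from reads of the tRNAs in such libraries. Their counts are therefore no separate measure of the tRNAs. Nuclear genes of the respiratory chain changed little, with 3 higher and 14 lower of 31, a median of -0.10 and none by 2-fold.

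**Figure D4:**
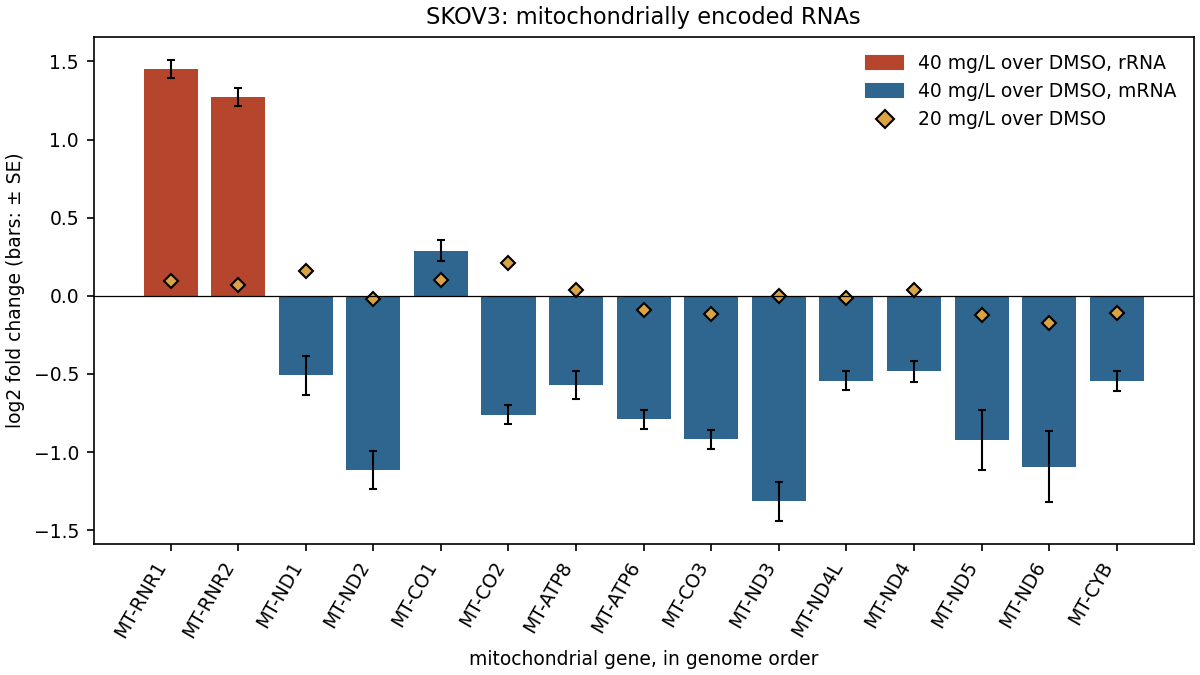
Log2 fold change of the 2 mitochondrial ribosomal RNAs and 13 mRNAs in genome order; bars show 40 mg/L over DMSO with SE from the fit of 9 libraries, diamonds 20 mg/L over DMSO. The ribosomal RNAs stand at 1.45 and 1.27, the mRNAs run from -1.32 (MT-ND3) to 0.29 (MT-CO1), and all diamonds lie near 0.

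Epithelial, adhesion and invasion genes mostly fell, while over all genes 26.4% rose and 25.6% fell. Of epithelial identity genes 2 of 19 tested members rose and 13 fell, with a median of -0.81. KRT19, a simple epithelial keratin, had 40.2, 40.1 and 45.8 CPM at 40 mg/L, against 157, 167 and 166 CPM in DMSO cultures (log2 fold change -1.96 ± 0.07 (SE), adjusted p = 5.63e-22). CDH1, E-cadherin, had 3.46, 3.67 and 3.71 CPM at 40 mg/L, against 8.53, 7.69 and 8.99 CPM in DMSO cultures (log2 fold change -1.22 ± 0.11 (SE), adjusted p = 4.28e-11). KRT7 had 130.2, 119 and 141 CPM at 40 mg/L, against 289.9, 286 and 302 CPM in DMSO cultures (log2 fold change -1.17 ± 0.06 (SE), adjusted p = 1.72e-18). The groups were separate in all 3, and PAX8, a lineage factor of the female reproductive tract, was one of those that rose, at 0.90. Mesenchymal and invasion genes fell in 14 of 26 cases and rose in 6, so more members fell than rose in both classes. MMP1, interstitial collagenase, had 385, 331 and 359 CPM at 40 mg/L, against 889, 929 and 877 CPM in DMSO cultures (log2 fold change -1.33 ± 0.06 (SE), adjusted p = 9.15e-20). MMP10 and MMP13 fell by 1.94 and 1.37 on the log2 scale, whereas TIMP3, a metalloproteinase inhibitor, rose, at 1.46. Collagens, laminins and integrins had 4 higher and 23 lower of 33, with ITGB6 at -2.10 and ITGB4 at -1.45.

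Markers of fibroblasts and endothelium moved with the treatment in the same sense. Their summed level ran from 516.6 to 544 CPM at 40 mg/L and from 787 to 829.9 CPM in DMSO cultures, and 10 of the 11 tested fell. COL1A1 and COL1A2 made up most of that sum, while VWF, CDH5 and TEK stayed at or below 0.107 CPM in every SKOV3 library. Whether the collagen signal came from the carcinoma cells themselves was not tested.

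Factors that act on vessels moved both ways, with 7 of 14 higher and 6 lower. Beside ANGPT2, VEGFA rose, at 0.82, as did CXCL8, at 1.33. HGF, the ligand of MET, had 2.15, 2.12 and 2.26 CPM at 40 mg/L, against 15, 15.6 and 13.8 CPM in DMSO cultures and fell (log2 fold change -2.77 ± 0.12 (SE), adjusted p = 8.36e-20). Among genes that TGF-beta or YAP drive, 9 rose and 9 fell of 21. CTGF and CYR61, YAP targets, rose 4.74-fold and 3.9-fold, whereas ID1, a target of BMP signals, had 3.15, 3.55 and 4.03 CPM at 40 mg/L, against 18.2, 19.1 and 19 CPM in DMSO cultures and fell (log2 fold change -2.40 ± 0.10 (SE), adjusted p = 1.29e-20). The list therefore has no common direction.

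Interferon response and antigen presentation genes fell in 18 of 27 cases and rose in 5, with a median of -0.40. IFIT1, which binds viral RNA, had 5.61, 7 and 5.59 CPM at 40 mg/L, against 14.9, 18.9 and 16.3 CPM in DMSO cultures (log2 fold change -1.46 ± 0.10 (SE), adjusted p = 4.41e-14), and MX1 fell by 1.25 on the log2 scale. B2M, the light chain of antigen presenting complexes, rose, at 0.26. Genes of NF-kB and inflammation had 8 higher and 7 lower of 24 (33.3% and 29.2%), near the 26.4% and 25.6% of all genes. Tubulins fell in 12 of 17 cases, with TUBA1B at -1.59 and TUBB at -1.38, and sequences shared between paralogs leave the split of their reads uncertain. ERBB2 fell slightly (log2 fold change -0.26 ± 0.05 (SE), adjusted p = 5.21e-05), its relative ERBB4 fell, at -1.77, and HBEGF, a ligand of EGFR, rose, at 1.60. Proteasome subunits had 3 higher and 13 lower of 31, with a median of -0.10. Hypoxia genes had 12 higher and 11 lower of 27. Both tested metallothioneins fell, MT2A by 1.41 and MT1X by 2.34 on the log2 scale. MT1X averaged under 5 CPM in both groups, and the 6 other metallothioneins listed had too few counts to be tested.

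A larger share of the genes that span long stretches of the genome was called lower than of shorter ones, given here as a description with no test of the difference. Among 682 tested genes that span over 300 kb from first to last exon, 61.3% were called lower and 8.2% higher, with a median log2 fold change of -0.52. Genes of 100 to 300 kb had 34.0% lower and 23.9% higher, genes of 30 to 100 kb had 26.0% and 32.8%, and genes of 10 to 30 kb had 24.0% and 32.8%. Of genes under 10 kb, 20.5% were lower and 19.9% higher, at a lower median level. Among the 371 genes over 300 kb with a mean of at least 5 CPM, a limit added after the data were seen, 68.5% were lower and 10.2% higher. The 55 tested gene names that stand for copies at several places were left out of these classes. The median of the longest class was -0.01 at 20 mg/L. In A2780 cells at 40 mg/L it was -0.22, against -0.02 to 0.03 for the other classes. C2orf88 had 4.52, 3.67 and 4.78 CPM at 40 mg/L, against 23.7, 27 and 27.8 CPM in DMSO cultures (log2 fold change -2.60), and LSAMP, a neural adhesion molecule, had a log2 fold change of -2.55. CREB5, a bZIP transcription factor, and MAP2, a microtubule protein, were long genes that rose, at 1.74 and 1.32. These 4 were chosen after their values were seen. Across 5 classes of equal size by summed exon length, the share called lower ran from 17.8% for the shortest to 32.2% for the longest, and the share called higher from 15.7% to 33.5%. In the second of these classes 24.5% were lower and 21.2% higher, in the third 27.2% and 28.0%, and in the fourth 26.5% and 33.8%. Their median level differed too, from 0.941 CPM in the shortest to 29.8 CPM in the longest. Across 5 classes by mean level, the share lower ran from 12.9% in the lowest to 37.0% in the highest. The share higher was 10.3% in the lowest, 37.6% in the fourth and 33.4% in the highest. The part of level in the shares by exon length was not tested. Between chromosomes 1 to 22 and X, the median stayed between -0.06 and 0.09.

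**Figure D5:**
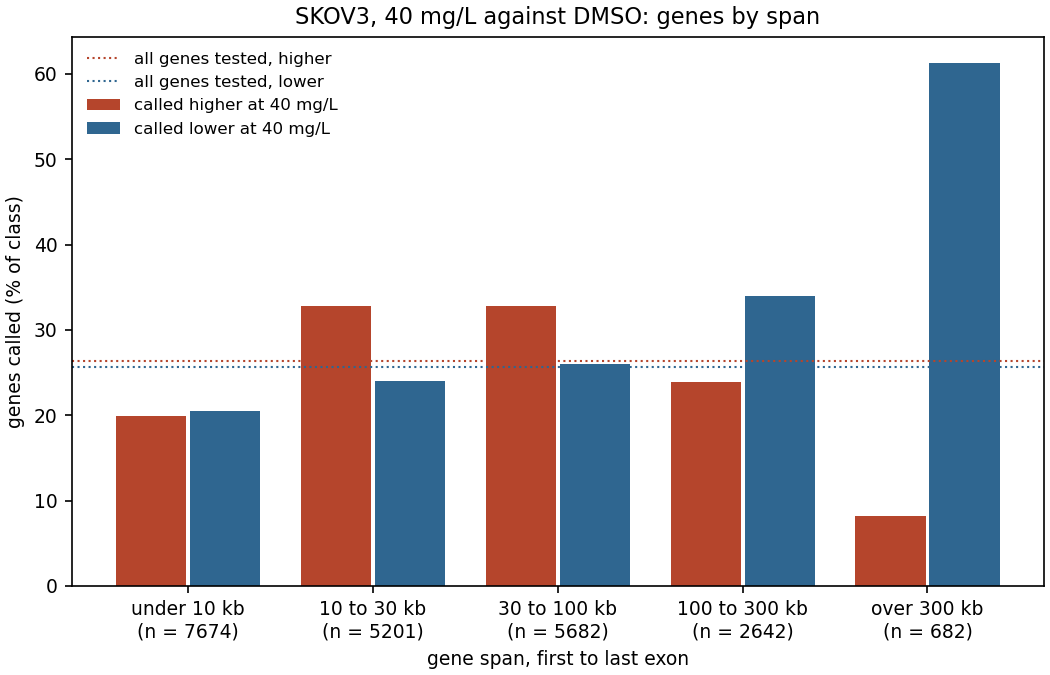
Share of tested genes (in %) called higher or lower at 40 mg/L by span from first to last exon; n is the number of genes in a class and dotted lines give the shares over all genes tested. The share lower reaches 61.3% and the share higher drops to 8.2% in genes over 300 kb.

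At 20 mg/L, 2217 genes (10.1%) differed from DMSO, 150 of them by at least 2-fold (0.684%). Without DMSO replicate 3 the count was 1443. Both doses were compared with the same DMSO libraries, so their values are given side by side only. Of all genes, 5.16% were higher and 4.95% lower at 20 mg/L. NRF2 targets had 30 of 35 higher at 20 mg/L, with a median of 0.67, and at 40 mg/L also 30 higher, with a median of 1.23. NQO1 had a log2 fold change of 1.09 at 20 mg/L and 1.27 at 40 mg/L, while HMOX1 had 1.13 and 3.42. Mitotic genes had 31 of 32 lower at 20 mg/L with a median of -0.55, against 32 of 32 and -1.82 at 40 mg/L. The integrated stress response had 21 of 34 higher at 20 mg/L, and cholesterol synthesis 19 of 24 lower. Replication genes were higher in 28 of 38 cases at 20 mg/L.

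Set directly against 20 mg/L, 40 mg/L gave 10394 called genes (47.4%), 5081 higher and 5313 lower. The highest named were KIAA1683, OSGIN1, ATF3 and ANGPT2, and the lowest PIF1, MEFV, CYP24A1 and SLC22A2. CYP24A1, which degrades vitamin D, had 4.71, 5.4 and 3.89 CPM in DMSO cultures, 8.13, 7.45 and 9.43 CPM at 20 mg/L and 0.687, 0.905 and 0.537 CPM at 40 mg/L. It was thus higher than DMSO at the lower dose (log2 fold change 0.84, adjusted p = 2.57e-05) and lower at the higher dose (-2.70, adjusted p = 2.85e-14). MEFV, in contrast, had 12.5, 11.9 and 12.3 CPM at 20 mg/L and was not called there. SLC22A2, an organic cation transporter, was likewise lower at 40 mg/L alone (-2.56, and 0.19 at 20 mg/L).

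The lines were grown in different media, per the labels, so line and medium cannot be told apart here. The response of SKOV3 cells differed from that of A2780 cells in 7101 of 23742 genes tested in both lines (29.9%), as the difference of the log2 fold changes at 40 mg/L. The response was higher in SKOV3 cells for 14.3% of all genes and lower for 15.7%. The mitotic list differed almost throughout, with 31 of 32 members falling further in SKOV3 cells and a median difference of -1.11. PIF1 had a difference of -2.56 ± 0.18 (SE, adjusted p = 2.53e-14), DLGAP5 of -2.64 ± 0.10 (SE, adjusted p = 1.69e-22) and HMMR of -2.45 ± 0.11 (SE, adjusted p = 1.15e-20). Cholesterol synthesis genes had 20 of 24 members with a lower response in SKOV3 cells, where the median log2 fold change was -0.80, against 0.16 in A2780 cells. Ribosome biogenesis genes had a higher response in SKOV3 cells in 31 of 32 cases, with medians of 0.21 in SKOV3 and -0.51 in A2780 cells. MYC had a difference of 2.72 ± 0.10 (SE, adjusted p = 1.22e-23). Its level averaged 65.0 ± 4 CPM at 40 mg/L and 20.2 ± 0.249 CPM with DMSO in SKOV3 cells, and 28.6 ± 1.07 and 58.8 ± 4.49 CPM in A2780 cells (SD, n = 3 each), so it rose in SKOV3 and fell in A2780 cells. SLC7A5 had a difference of 2.54 ± 0.15 (SE, adjusted p = 1.54e-10), TRIM16L, an NRF2 target, of 2.81 ± 0.16 (SE, adjusted p = 9.65e-18) and CREB5 of 2.30 ± 0.18 (SE, adjusted p = 3.35e-13). SMAD6, an inhibitor of BMP signals, had a difference of -2.38 ± 0.17 (SE, adjusted p = 1.24e-14). Chaperones of the endoplasmic reticulum responded more in SKOV3 cells in 17 of 23 cases.

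NRF2 targets differed less evenly between the lines, with 15 of 35 responding more and 10 responding less in SKOV3 cells. HMOX1 and OSGIN1 were not called for a difference, at -0.27 and 0.16, which does not show that the lines respond alike. ANGPT2 had a difference of 4.33 ± 0.63 (SE, adjusted p = 2.8e-06), and its A2780 libraries held 0.189, 0.342 and 0.196 CPM at 40 mg/L and 0.0901, 0.227 and 0.428 CPM with DMSO. Genes with the most extreme differences by rule, among them TMEM132B, FAM83G and ZNF676 upward and SORBS2, CDH11, KRT5 and COL8A1 downward, had at most 6 counts in any A2780 library, so no difference is given for them. The genes with at least 5 CPM in both lines named above (MYC, SLC7A5, TRIM16L, CREB5, PIF1, DLGAP5, HMMR and SMAD6) were picked by a limit added after these values were seen.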

How the data were processed

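The deposited table holds whole-number counts per gene for 18 libraries. Per the labels, RNA libraries were made with a stranded mRNA kit, and per the submitters' processing notes Trimmomatic 0.36 and the GRCh38 build were used; aligner, counter, annotation release and whether counting used strand: not given in the sources used here. Exon coordinates and lengths were taken from the same table. Groups come from the labels. In R 4.3.3, the 9 SKOV3 libraries were fitted together with edgeR 4.0.16 (TMM scaling, filterByExpr, robust quasi-likelihood F test, two-sided, Benjamini-Hochberg adjustment over 21936 genes), and each contrast was called at an adjusted p under 0.05. The difference from A2780 was an interaction contrast in a fit of all 18 libraries. The SE is the log2 fold change divided by the root of F. The scripts were tested on simulated data in which far fewer genes changed than were called here. Scaling and calling under so broad a change were not tested.

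Named were NQO1, GPX4, SLC7A11, AIFM2, TFRC and HMOX1, the 12 highest and 12 lowest called genes with a symbol, a mean of 5 CPM or more in either group and separate libraries, 4 of each direction in the other comparisons, and up to 4 leading members of each of 43 gene lists, plus members needed to account for a family. The comparison and the lists were chosen with earlier results of these data known. The alternatives were DESeq2 1.42.0, other scaling and filters, halved counts, a replicate block and leaving out each library. Promoters come from RefSeq (GRCh38.p14), and which starts were used in these cells was not tested. Some genes that the naming rule or the lists hold are not reported here.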

Additional observations from a re-analysis of the deposited data

Results flagged for a closer look

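Of the 6 genes named in every comparison and the 12 that rose and 12 that fell most, 21 had a response at 40 mg/L that differed between SKOV3 and A2780 cells by the interaction test of edgeR. Over all genes, 7101 of 23742 (29.9%) differed. The 12 and the 12 were picked by their change in the SKOV3 libraries, which this test uses again. That choice favours a larger response in SKOV3 cells, so the count of 21 does not measure how often the lines differ. Values are SKOV3 minus A2780 differences of log2 fold changes. Among genes that rose in SKOV3 cells, the response was larger there for ANGPT2 (4.33), SNORD3A (2.08), ATF3 (2.00), GADD45A (1.94), KIAA1683 (1.86), SRXN1 (1.34), MIR616 (0.92) and TXNRD1 (0.89). It was smaller in SKOV3 cells for NQO1 (-0.29) and SLC7A11 (-0.51), which belong to the same NRF2 list as SRXN1 and TXNRD1. Among genes that fell in SKOV3 cells, the difference was -4.25 for MEFV, -3.78 for VSNL1, -2.64 for DLGAP5, -2.56 for PIF1, -2.45 for HMMR, -2.37 for HMMR-AS1, -2.32 for FAM72C, -2.04 for FAM72B, -1.87 for C10orf91, -1.61 for KIF20A and -1.48 for CCNB1. ANGPT2, VSNL1 and MEFV had at most 13, 14 and 16 counts in any A2780 library, so their differences rest on few counts in that line. The difference for NQO1 was no longer called without A2780 replicate 3 at 40 mg/L (adjusted p = 0.0666).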

How the results depend on the processing

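The directions of all named genes at 40 mg/L against DMSO and their calls were the same under all 2352 recomputed values for 168 genes (RLE scaling, totals without mitochondrial genes, other filters, halved counts, DESeq2, only the groups compared, replicate block and each library left out). Genes called numbered 11402 with RLE scaling, 10952 with DESeq2 and 11206 with halved counts, against 11425. The count of genes changed at least 2-fold fell to 1381 with a filter of at least 1 CPM in 3 libraries, which tested fewer genes. Leaving out 1 library at a time gave 10360 to 11197 called genes, 5142 to 5663 higher, 5155 to 5534 lower and 2121 to 2359 changed at least 2-fold. It gave 1443 to 1741 for 20 mg/L against DMSO, 9259 to 10192 for 40 against 20 mg/L and 6389 to 6895 for the difference from A2780. Libraries of the same number did not deviate together (correlations -0.021 to 0.051), and with a replicate block 11622 genes were called at 40 mg/L, 2537 at 20 mg/L, 10638 between the doses and 7016 for the difference from A2780. At 40 against 20 mg/L, GPX4 lost its call under 6 alternatives. For the difference from A2780, 10 genes lost a call under at least 1 alternative, 23 values in all, and AKR1B10 gained one; the cause was not tested. Counts or medians of the lists moved in 82 of 1806 recomputed values, in 33 results. Among counts, leaving out DMSO replicate 1 gave 1 higher in place of 3 for both the respiratory chain and the proteasome, 2 lower in place of 4 for amino acid transporters (also without 40 mg/L replicate 3), 3 higher in place of 5 for interferon genes (also without DMSO replicate 2 or 40 mg/L replicate 2) and 1 tubulin higher in place of 2 (also with halved counts or the 1 CPM filter). Leaving out 40 mg/L replicate 2 gave 1 NRF2 target lower in place of 2 and 1 ribosome biogenesis gene lower in place of 3 (also without 40 mg/L replicate 1). The single ribosomal protein gene that was lower lost its call in 4 alternatives, and 2 fibroblast or endothelial markers were higher in place of 1 without DMSO replicate 3 or 40 mg/L replicate 2. 1 immune cell marker was lower in place of 0 without 40 mg/L replicate 3. The median changed sign in at least 1 alternative for the GADD45 and growth arrest, ERK output, angiogenic factor, hypoxia and immune marker lists. Of 30 values for gene classes and motifs, 5 moved, all of them motif shares over called genes, which are void. Depth limits genes of few counts, and p-values cover only the spread between 3 libraries a group.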
